A study of Mus musculus with 6 samples.

Results

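The 26S proteasome is the enzyme that degrades ubiquitin-tagged proteins, and the genes for its subunits and assembly factors are described here in pre-B cells with and without Mef2c. Members were all genes whose mouse symbol starts with Psma to Psmg followed by a digit and that had a probe set annotated to that symbol alone, and each gene was represented by its brightest probe set over the 6 arrays. The rule found 48 genes of the 17372 that could be named in the deposited table, and used names and mean levels only. Only 1 member, Psmg2, had more than 1 such probe set, so every other member rests on a single one. Of these 48, 46 encode subunits, regulators or assembly factors of the particle. The remaining 2 only carry a related name, since Psmc3ip encodes a meiotic recombination factor and Psme3ip1 a protein that binds the PA28-gamma activator. The rule left out Psme2, the partner of Psme1 in the PA28 activator, because its probe set carries 2 symbols, and the deubiquitinating lid subunit Psmd14 was not analysed here.

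The pre-B cells had been sorted from the bone marrow of mice 9 months old and profiled on Affymetrix mouse expression arrays. The 3 Mef2c-deficient arrays came from Vav-Cre Mef2cfl/fl mice, in which Cre is driven in blood-forming cells, so the deletion is not restricted to the B lineage. The 3 control arrays are labelled as control only, and per the study's methods such mice carried floxed Mef2c alleles without Cre, or Vav-Cre with 1 floxed allele. The samples are described as independent, but no animal is named, and p-values therefore cover only the variation among these samples, which may be technical. Mef2c itself, a MADS-box transcription factor, was not analysed here, so the deletion was not checked on the arrays. The median deposited value per array was 236 to 285.

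The particle has a barrel, the 20S core, made of alpha and beta rings, and a cap, the 19S regulator, which recognises ubiquitin, unfolds the substrate with a ring of ATPases and feeds it into the barrel. Cells of the immune system replace the catalytic beta subunits Psmb6, Psmb7 and Psmb5 by the inducible Psmb9, Psmb10 and Psmb8, which together form the immunoproteasome and favour peptides that fit MHC class I. Other activators, PA28 and PA200, can take the place of the 19S cap, and dedicated chaperones assemble cap and core. Many proteasome genes are known targets of the transcription factors Nfe2l1 and Nfe2l2, which bind antioxidant response elements, whereas the immunoproteasome genes are known targets of interferon.

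The promoter windows of 4 members are shown because they belong to 3 of the cap genes described below and to the immunoproteasome gene Psmb9, so that the start regions of genes with lower means can be read beside that of a gene near the control level. They were chosen after the values were seen, are taken from RefSeq on GRCm38.p6, and run from 250 bases before to 50 bases after the annotated start. Capitals mark the antioxidant response element (TGACNNNGC) or the CCAAT box (CCAAT) on either strand. The first 3 windows lie on the plus strand, at chr12:100109952-100110251 for Psmc1, chr14:45329574-45329873 for Psmc6 and chr11:107479278-107479577 for Psmd12, and that of Psmb9 lies on the minus strand at chr17:34187281-34187580.
Psmc1: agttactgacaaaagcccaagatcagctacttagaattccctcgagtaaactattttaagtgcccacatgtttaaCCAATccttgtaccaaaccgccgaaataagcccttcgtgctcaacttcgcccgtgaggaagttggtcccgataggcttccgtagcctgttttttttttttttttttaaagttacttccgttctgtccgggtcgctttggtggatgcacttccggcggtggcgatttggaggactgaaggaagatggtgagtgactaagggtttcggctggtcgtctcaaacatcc
Psmc6: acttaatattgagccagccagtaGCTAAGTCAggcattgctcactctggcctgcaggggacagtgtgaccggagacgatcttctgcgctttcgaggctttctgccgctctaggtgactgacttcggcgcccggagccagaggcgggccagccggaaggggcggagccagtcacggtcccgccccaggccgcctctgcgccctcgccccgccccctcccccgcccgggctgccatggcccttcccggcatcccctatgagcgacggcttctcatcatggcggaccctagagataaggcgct
Psmd12: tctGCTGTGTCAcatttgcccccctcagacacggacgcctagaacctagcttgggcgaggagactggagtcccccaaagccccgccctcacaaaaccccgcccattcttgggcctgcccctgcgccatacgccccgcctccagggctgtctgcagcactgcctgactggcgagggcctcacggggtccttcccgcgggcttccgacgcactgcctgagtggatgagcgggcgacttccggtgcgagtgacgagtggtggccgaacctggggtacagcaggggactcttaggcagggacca
Psmb9: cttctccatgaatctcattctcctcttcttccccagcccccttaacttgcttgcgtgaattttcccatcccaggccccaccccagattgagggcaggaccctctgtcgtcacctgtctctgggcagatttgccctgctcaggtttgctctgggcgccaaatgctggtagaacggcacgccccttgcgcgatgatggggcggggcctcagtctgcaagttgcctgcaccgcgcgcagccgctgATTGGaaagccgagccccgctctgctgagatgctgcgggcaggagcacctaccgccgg
The antioxidant response element began 227 bases before the start of Psmc6 and 247 bases before that of Psmd12, in both cases on the minus strand. The CCAAT box lay 175 bases before the start of Psmc1, and 8 bases before that of Psmb9 on the opposite strand.

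Windows were given for 38 of the 46 particle genes, and 2 of them had more than 1. Shares of members count genes with a match in any of their windows. The shares set against them count single windows, so the 2 measures are not quite alike. The antioxidant response element stood in the windows of 6 genes (15.8%), against 12.4% of all 32851 windows. These were the cap genes Psmc6 and Psmd12, the core genes Psmb5 and Psmb6, the chaperone gene Psmd9 and the activator gene Psme4. An interferon-stimulated response-like element (GAAANNGAAA) stood in 5 (13.2%, against 3.44%), among them Psme1, and in 0 of the 3 immunoproteasome genes. The gamma-activated sequence (TTCNNNGAA), which is its own reverse complement, stood in 3 (7.89%, against 8.3%), including Psmb8. The CCAAT box stood in 13 (34.2%, against 37.4%). The MEF2 consensus, also its own reverse complement, was found in 0 of the 38 against 3.19% of all windows. Both strands were searched, and matches of different motifs overlapped in 0 cases. A match is a description of the letters and not a binding site, and no match says only that these letters were not in these windows.

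Of the 48 members, 43 were bright enough to be tested, that is, their mean log2 value over the 6 arrays lay above 7.26, the 40th percentile of the deposited table. Differences below are Mef2c-deficient minus control on the log2 scale of the deposited values, from limma fitted over 11271 genes with Benjamini-Hochberg adjustment over all of them. The deposited values are linear, and the base used to leave the log scale is not given. Of these values, 2% exceed what a 16-bit scanner can count, and mean log2 values over the 6 arrays reach 20.73. Base 2 is hard to reconcile with values so far above that count, so the printed log2 differences are probably too large. If the base was e, each log2 difference and its SE is 0.693 times the value printed.

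In Mef2c-deficient pre-B cells, genes of the 19S cap had lower means than in controls almost throughout. Of the 14 genes of the 20S core tested, outside the immunoproteasome, 11 (78.6%) had lower means, against 62.3% of all genes. The median shift of these 14 was below the control mean in 2 of the 3 Mef2c-deficient arrays only. The immunoproteasome genes Psmb9 and Psmb10 lay close to the control level on the deposited scale. The adjusted threshold of 0.05 was passed by 0 of the 43 members, with Psmc1 the nearest at an adjusted p of 0.0934. Over all 11271 genes, limma called 2 as lower (0.0177%) and 0 as higher (0%) at that threshold. At an unadjusted p under 0.05, 13 members (30.2%) were lower, against 20.9% of all genes, and 0 were higher, against 5.32%. Psmc6 and Psmf1 passed the level filter through the control arrays alone, and without them 11 of 41 (26.8%) were lower. The distance from all genes depended on the settings: with a filter at the 60th percentile 25% of the members and 24.9% of all genes were lower, and without Mef2c-deficient replicate 2 these shares were 18.6% and 21.7%. With no level filter they were 29.2% of 48 members and 15.4% of 17372 genes. In 19 members (44.2%), Psmc6 and Psmf1 among them, every Mef2c-deficient array lay below every control array, against 27.1% of all genes. In the other direction the groups did not overlap for 1 member, Psma3, against 10.6%. The median difference was -0.56 over the members and -0.36 over all genes.

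Of the 13 lower members, 9 encode the cap. Of the 16 cap genes tested, 9 (56.2%) were lower at an unadjusted p under 0.05, 13 (81.2%) had groups that did not overlap, and the median difference was -0.78. Without Psmc6 it was 8 of 15 (53.3%). Of the 14 core genes tested, outside the immunoproteasome, 0 were lower at an unadjusted p under 0.05. With lower Mef2c-deficient values, groups did not overlap for Psmb6 alone, and the median was -0.25. Whether cap and core genes differed from each other was not tested, since the lists were chosen with results known.

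**Figure D1:**
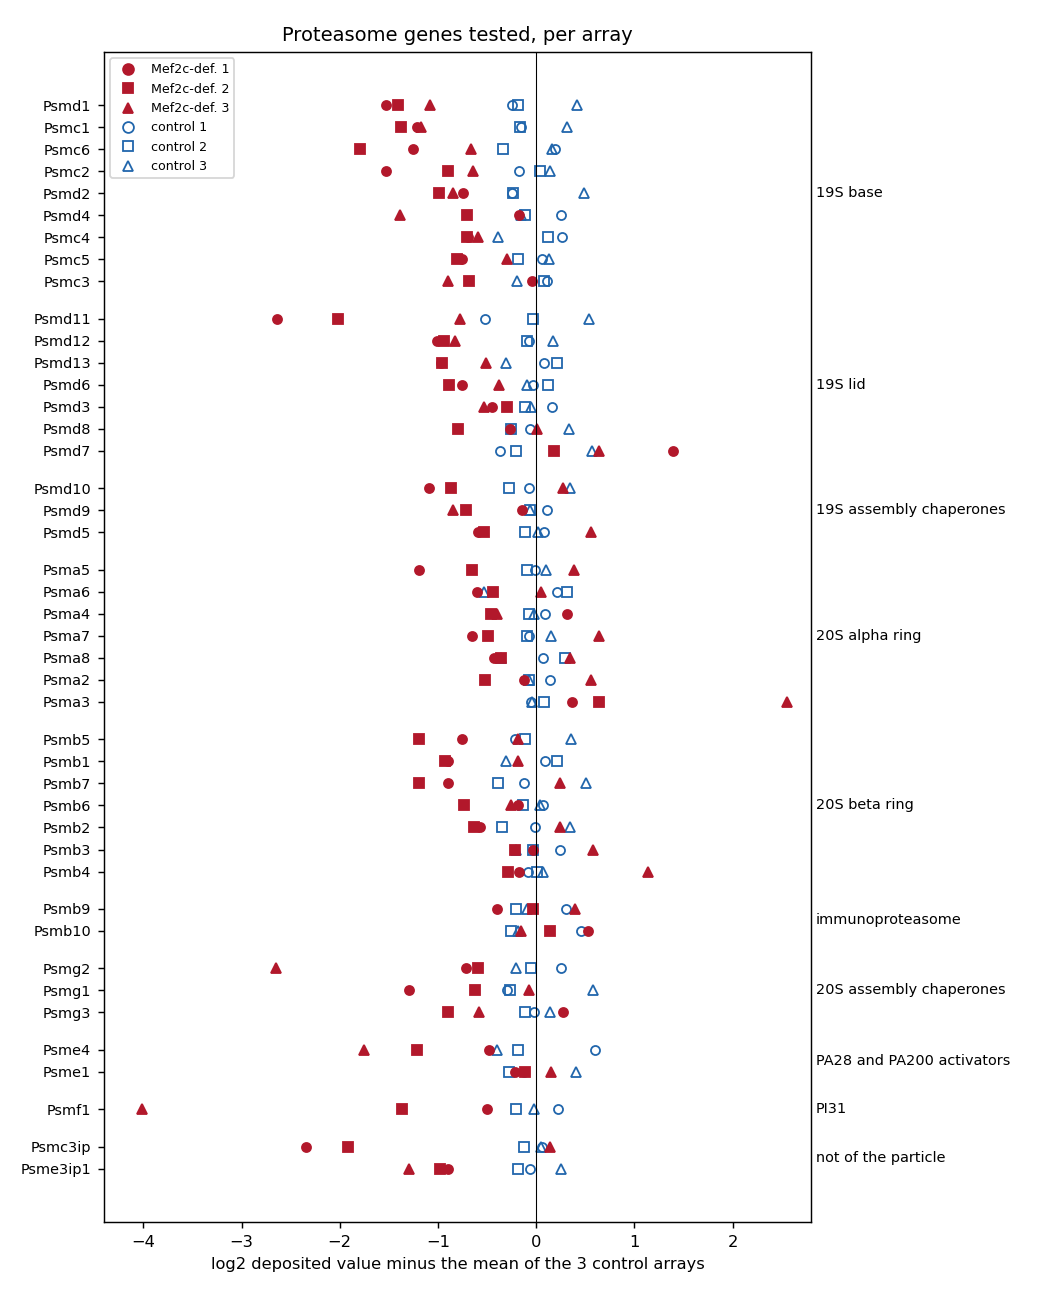
Each row is 1 of the 43 proteasome genes tested and the x axis is its log2 deposited value relative to the average over 3 control arrays; filled red symbols are Mef2c-deficient arrays, open blue symbols control arrays, and the shape gives the replicate number. The cap genes of the top 2 blocks lie left of 0 with few exceptions such as Psmd7, whereas in the core blocks the red triangle, Mef2c-deficient replicate 3, often lies right of 0.

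The base of the cap, the part that meets the core, holds the 6 ATPases Psmc1 to Psmc6 and the non-ATPase subunits Psmd1, Psmd2 and Psmd4, and all 9 had lower means, by 0.54 to 1.34. The ATPase gene Psmc1 had log2 values of 14.72, 14.55 and 14.76 in Mef2c-deficient replicates 1 to 3, against 15.78, 15.77 and 16.24 in control replicates 1 to 3. All Mef2c-deficient arrays were below all controls, and within-group spread was small beside the gap. The difference was -1.25 ± 0.28 (SE, n = 3 each, limma adjusted p = 0.0934), or 2.39-fold lower on the deposited scale and 1.83-fold if that scale has base e. Psmd1, a large scaffold subunit of the base, had 13.32, 13.44 and 13.77 in Mef2c-deficient arrays, against 14.60, 14.67 and 15.27 in control arrays. Its groups were also apart, by -1.34 ± 0.31 (SE, n = 3 each, limma adjusted p = 0.0961).

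Psmd2, the other large scaffold, to which ubiquitin shuttle proteins dock, had 13.48, 13.23 and 13.37 in Mef2c-deficient arrays, against 13.97, 13.98 and 14.71 in control arrays, a difference of -0.86. The ATPase gene Psmc2 had 13.01, 13.64 and 13.90 in Mef2c-deficient arrays, against 14.37, 14.58 and 14.68 in control arrays, a difference of -1.03. Both sets of arrays were apart. The adjusted p was 0.155 for Psmd2 and 0.133 for Psmc2 (limma). The ATPase gene Psmc6 gave -1.24 from a dim probe set, with 6.75, 6.21 and 7.34 in Mef2c-deficient arrays, against 8.19, 7.66 and 8.16 in control arrays. Its adjusted p was 0.124 (limma), but its Mef2c-deficient mean of 6.76 lay below the level filter, so it was tested only because its control mean was higher. The ATPase genes Psmc4 (-0.66) and Psmc5 (-0.63) and the ubiquitin receptor Psmd4 (-0.75) had groups that did not overlap but did not reach an unadjusted p of 0.05. For the ATPase gene Psmc3 (-0.54) the groups overlapped.

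The lid removes ubiquitin from substrates. Its subunit Psmd11, which is known to join lid to core, had 8.42, 9.04 and 10.28 in Mef2c-deficient arrays, against 10.54, 11.03 and 11.60 in control arrays. This was the largest difference among the cap genes, -1.81 ± 0.52 (SE, n = 3 each, limma adjusted p = 0.119), with Mef2c-deficient replicate 3 nearest to the controls. Without that array it was -2.32, with an adjusted p of 0.0473 (limma). Psmd12, a structural lid subunit, had 13.10, 13.17 and 13.28 in Mef2c-deficient arrays, against 14.04, 14.02 and 14.28 in control arrays, with little spread within either group, at -0.93 ± 0.26 (SE, n = 3 each, limma adjusted p = 0.116). Psmd13 (-0.81) and Psmd6 (-0.68), also structural lid subunits, were lower at an unadjusted p under 0.05. Psmd3 (-0.42) had groups that did not overlap, and Psmd8 (-0.36) had groups that did. Psmd7, the inactive partner of the deubiquitinase, had a higher mean (0.74), with 10.49, 9.28 and 9.74 in Mef2c-deficient arrays and 8.73, 8.89 and 9.67 in control arrays, and its groups overlapped. The single probe sets of Psmd7 and Psmd11 were the dimmest among the lid genes tested.

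In the 20S core the direction of the median shift differed between Mef2c-deficient arrays. The alpha ring genes, whose products gate the barrel, had a median shift from the control mean of -0.43 and -0.46 in Mef2c-deficient replicates 1 and 2 but of 0.39 in replicate 3, against 0.07, -0.07 and -0.03 in control replicates 1 to 3. Psma7, for example, had 15.48, 15.64 and 16.77 in Mef2c-deficient arrays, against 16.06, 16.04 and 16.28 in control arrays. The first 2 Mef2c-deficient arrays were thus below all controls and the third was above them. Differences were near 0 or moderately negative for Psma2 (-0.03), Psma4 (-0.18), Psma5 (-0.48), Psma6 (-0.33), Psma7 (-0.16) and Psma8 (-0.15), whose product is known from testis. Psma3 had a higher mean, with 10.68, 10.96 and 12.87 in Mef2c-deficient arrays, against 10.27, 10.40 and 10.28 in control arrays. Its difference was 1.19 ± 0.56 (SE, n = 3 each, limma adjusted p = 0.217), and 0.50 without Mef2c-deficient replicate 3. Psma3 was read from a single probe set, dimmer than those of most core genes tested. The beta ring genes showed the same split, with medians of -0.56, -0.72 and 0.24 in Mef2c-deficient arrays, against 0.00, -0.12 and 0.07 in control arrays. The structural beta genes Psmb1 (-0.67) and Psmb2 (-0.32) had lower means, and Psmb3 (0.11) and Psmb4 (0.23) higher ones. Without Mef2c-deficient replicate 3, 4 of the 14 core genes (28.6%) reached an unadjusted p under 0.05, all lower (Psma5, Psmb1, Psmb5 and Psmb7). In that fit 23.7% of the 11271 genes passed this level as lower, a share close to that of the core. The core median was then -0.49, against -0.85 for the cap and -0.32 for all genes.

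**Figure D2:**
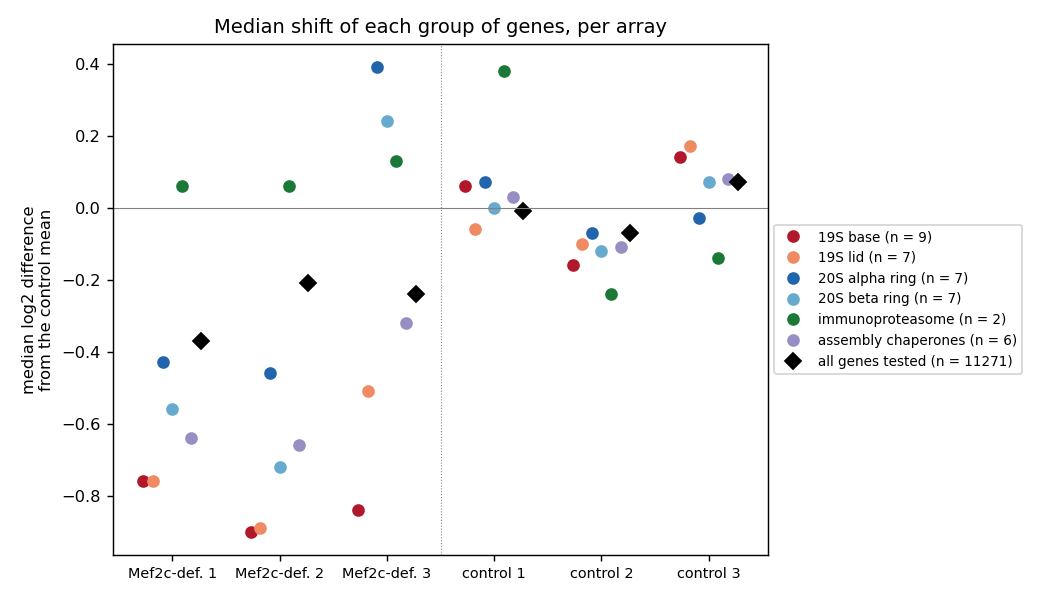
The y axis is the median log2 difference from the control mean over the genes of each group, for each of the 6 arrays on the x axis, and colours mark the gene groups with all genes tested as black diamonds. Among the groups plotted, the cap (19S base and lid) is lowest in each Mef2c-deficient array, and the core rings are below 0 in Mef2c-deficient replicates 1 and 2 and above 0 in replicate 3.

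The cap was shifted below the control mean in all 3 Mef2c-deficient arrays. Its median was -0.76, -0.90 and -0.66 in Mef2c-deficient replicates 1 to 3, against -0.05, -0.11 and 0.15 in control replicates 1 to 3. Over all genes it was -0.37, -0.21 and -0.24 in Mef2c-deficient arrays, against -0.01, -0.07 and 0.07 in control arrays. Within each array, the core median lay above the cap median by 0.27, 0.39 and 0.95 in Mef2c-deficient arrays, against 0.08, 0.04 and -0.14 in control arrays, values that did not overlap and that were not tested. Part of the shift went with brightness. Genes tested were split into 10 equal groups by mean level, and the median difference was 0.31 among the dimmest, -0.70 in the seventh group and -0.44 among the brightest. In the brightest group, which held 20 of the 41 particle genes tested, 18.2% of all genes and 3 of those 20 were lower at an unadjusted p under 0.05. In the next group, with 7 particle genes, it was 27.9% of all genes and 4 of the 7.

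**Figure D3:**
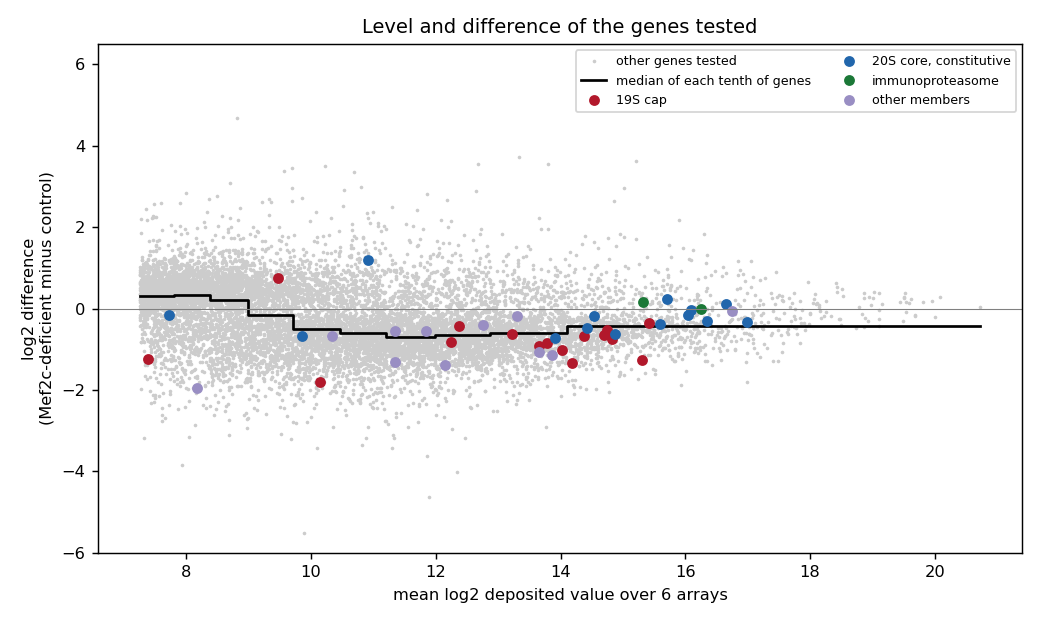
The x axis is the mean log2 deposited value over the 6 arrays and the y axis the log2 difference, Mef2c-deficient minus control, with 1 point for each of the 11271 genes tested; coloured points are the proteasome genes and the black line is the median of each of 10 equal groups of genes by level. Most cap genes (red) lie below the line and most core genes (blue) on or above it at similar levels.

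The immunoproteasome genes were set against their constitutive counterparts, the comparison the catalytic exchange calls for. Psmb9, which replaces Psmb6, had 15.85, 16.22 and 16.65 in Mef2c-deficient arrays, against 16.55, 16.04 and 16.16 in control arrays. Its groups overlapped completely, and the difference was -0.01 ± 0.32 (SE, n = 3 each, limma adjusted p = 0.985). Psmb6 had 15.60, 15.06 and 15.53 in Mef2c-deficient arrays, against 15.86, 15.66 and 15.83 in control arrays, groups that lay just apart (-0.39). Psmb10, which replaces Psmb7, had 15.77, 15.38 and 15.09 in Mef2c-deficient arrays, against 15.70, 14.98 and 15.05 in control arrays. In both groups replicate 1 was the highest, and the difference was 0.17 ± 0.33 (SE, n = 3 each, limma adjusted p = 0.712). Psmb7 had 14.28, 13.99 and 15.42 in Mef2c-deficient arrays, against 15.06, 14.79 and 15.69 in control arrays (-0.62), and replicate 3 was the highest in both groups.

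Psmb8, which replaces Psmb5, was represented by a single probe set of the kind that may bind several transcripts, and lay below the level filter, so it was not tested. It had 6.53, 6.46 and 7.18 in Mef2c-deficient arrays, against 6.20, 6.36 and 6.08 in control arrays, a difference of 0.51. Psmb5, the chymotrypsin-like subunit, had 13.51, 13.08 and 14.08 in Mef2c-deficient arrays, against 14.05, 14.16 and 14.62 in control arrays. Only Mef2c-deficient replicate 3 reached into the control range, and the difference was -0.72 ± 0.35 (SE, n = 3 each, limma adjusted p = 0.227).

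Within each array the log2 value of the constitutive gene was taken from that of its inducible counterpart, and the result was compared between groups by a two-sided exact permutation test, which over 3 against 3 arrays cannot go below 0.1. The Mef2c-deficient mean of Psmb9 minus Psmb6 lay above the control mean by 0.38 ± 0.32 (SE, exact p = 0.4, adjusted over 3 pairs 0.4) and that of Psmb10 minus Psmb7 by 0.79 ± 0.70 (SE, exact p = 0.3, adjusted 0.4), and in both pairs the groups overlapped. Between arrays of the same replicate number, Psmb10 minus Psmb7 differed by 0.85, 1.20 and 0.31 for replicates 1 to 3, all in 1 direction, and Psmb9 minus Psmb6 by -0.44, 0.78 and 0.80. An exact test over these pairings cannot go below 0.25, and gave 0.25 for Psmb10 minus Psmb7 and 0.5 for Psmb9 minus Psmb6. For Psmb8 minus Psmb5 the difference was 1.23 ± 0.26 (SE, exact p = 0.1, adjusted 0.3), but it rests on a Psmb8 probe set below the level filter in both groups, so its size and its place among the pairs cannot be read. With cyclic loess normalization it was 0.37 and with quantile normalization 0.59.

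**Figure D4:**
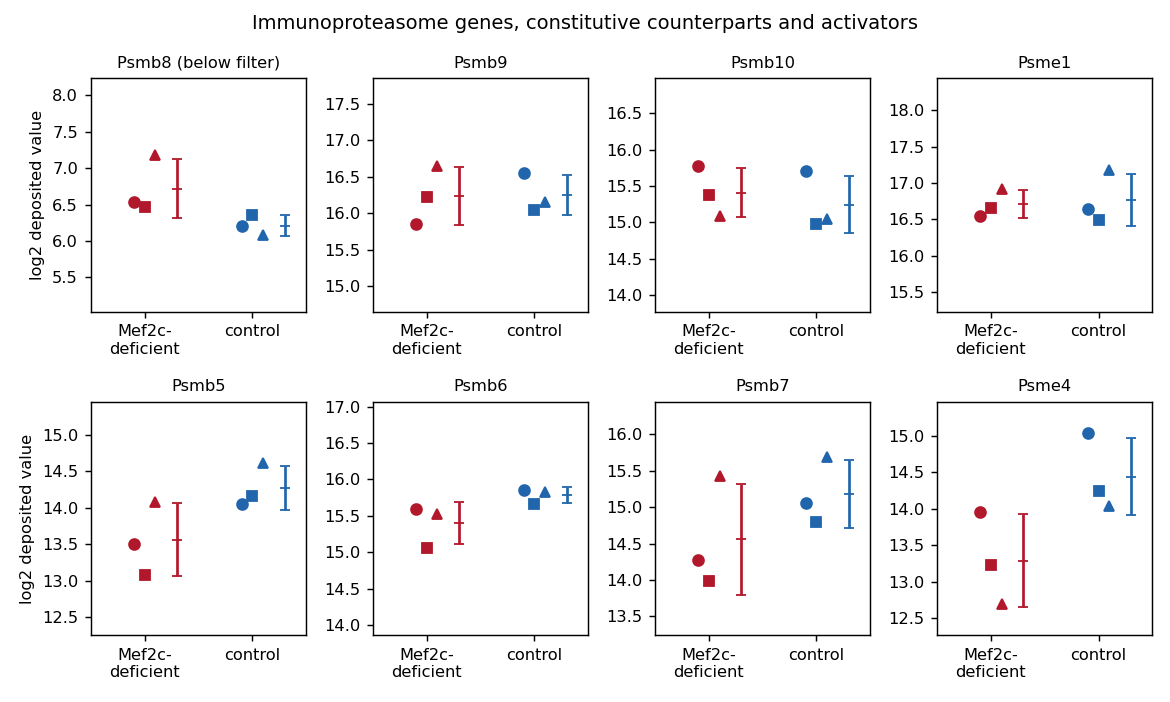
Each panel gives the log2 deposited value of 1 gene in the 3 Mef2c-deficient arrays (red, left) and the 3 control arrays (blue, right), with circle, square and triangle for replicates 1, 2 and 3 and a bar for mean ± SD; every panel spans the same number of log2 units, inducible genes stand above their constitutive counterparts, and the last column holds the activators. Psmb9, Psmb10 and Psme1 overlap between groups, Psmb5 and Psmb7 have lower Mef2c-deficient means, and Psmb8 is near the bottom of the measured range.

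The activators that replace the cap did not move alike in their means. Psme1, the alpha subunit of the interferon-inducible PA28, had 16.55, 16.66 and 16.92 in Mef2c-deficient arrays, against 16.65, 16.49 and 17.18 in control arrays, a difference of -0.06 with overlapping groups. Psme3, the nuclear PA28-gamma, lay below the filter, with 6.10, 5.61 and 6.43 in Mef2c-deficient arrays, against 4.99, 5.42 and 5.18 in control arrays. Psme4, the PA200 activator known for its role in acetylated histone degradation, had 13.96, 13.23 and 12.69 in Mef2c-deficient arrays, against 15.04, 14.25 and 14.04 in control arrays. Replicate 1 was highest and replicate 3 lowest in both groups, and the difference was -1.15 ± 0.43 (SE, n = 3 each, limma adjusted p = 0.158). Psmf1, which encodes the proteasome regulator PI31, had 8.66, 7.79 and 5.15 in Mef2c-deficient arrays, against 9.38, 8.95 and 9.14 in control arrays. Mef2c-deficient replicate 3 stood far below the rest, so that the difference of -1.96 was -0.93 without it. The Mef2c-deficient mean of 7.20 lay below the level filter, and Psmf1 was tested only because its control mean was 9.16.

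All 6 assembly chaperone genes tested had lower means, against 62.3% of all genes, and their median was -0.56, against -0.36. At an unadjusted p under 0.05, 1 of the 6 (16.7%), Psmg2, was lower, against 20.9% of all genes. Psmg2 pairs with Psmg1 to scaffold the alpha ring. It had 11.30, 11.42 and 9.36 in Mef2c-deficient arrays, against 12.26, 11.96 and 11.80 in control arrays, a difference of -1.31 that was -0.65 without Mef2c-deficient replicate 3. Psmg1 (-0.66) and Psmg3 (-0.41) had overlapping groups, as did Psmd10 (-0.56), known as gankyrin, and Psmd5 (-0.18), both chaperones of the ATPase ring. Psmd9 (-0.56), the third of these, had groups that did not overlap.

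The remaining members complete the 48. Psma1, the thymus-specific Psmb11 and the chaperone Psmg4 lay below the filter, at 5.09, 5.10 and 2.23 in Mef2c-deficient arrays against 6.04, 5.65 and 4.42 in control arrays for Psma1. Psmb11 had 6.97, 7.40 and 7.42 in Mef2c-deficient arrays, against 6.58, 6.86 and 7.10 in control arrays, and Psmg4 had 5.48, 5.78 and 7.41 in Mef2c-deficient arrays, against 5.18, 5.54 and 5.33 in control arrays. These 3 probe sets are dim on all arrays, and the values show no more than that. Of the 2 genes that only share the name, Psme3ip1 had 13.29, 13.21 and 12.90 in Mef2c-deficient arrays, against 14.13, 14.01 and 14.44 in control arrays, groups that were apart by -1.06 (limma adjusted p = 0.11). Psmc3ip had 10.50, 10.92 and 12.98 in Mef2c-deficient arrays, against 12.90, 12.72 and 12.89 in control arrays, a difference of -1.37. Mef2c-deficient replicate 3 matched the controls, and without it the difference was -2.13 with an adjusted p of 0.0453 (limma).

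Genes that work with the proteasome but lie outside the name rule mostly had lower means as well. Of 17 tested genes for transcription, assembly and substrate delivery, 16 had lower means, 7 (41.2%) reached an unadjusted p under 0.05 as lower and 0 as higher, and the median was -0.83. Over all genes, 62.3% had lower means, 20.9% were lower and 5.32% higher at that level, and the median was -0.36. The smallest p-values among them belonged to Nfe2l2, Ubqln2 and Zfand5. Nfe2l2, the transcription factor named above, had 12.03, 12.00 and 11.63 in Mef2c-deficient arrays, against 13.07, 12.79 and 13.53 in control arrays, groups that did not overlap (-1.24, limma adjusted p = 0.106). Ubqln2, a shuttle for ubiquitinated proteins, differed by -0.90 and Zfand5, an activator of the 26S particle, by -0.83, which was -0.20 when all its probe sets were averaged.

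For MHC class I presentation, which uses the peptides the proteasome makes, 11 genes were tested, with a median of 0.04, against -0.36 over all genes. At an unadjusted p under 0.05, 1 was lower (9.09%, against 20.9% of all genes) and 2 were higher, against 5.32% of all genes. Tapbp, which loads peptides, had 16.80, 17.11 and 17.33 in Mef2c-deficient arrays, against 16.54, 15.97 and 16.15 in control arrays (0.86, limma adjusted p = 0.148). H2-D1, a class I heavy chain with near-identical relatives that its probe set may share, differed by 1.17, and Nlrc5, the class I transactivator, by -1.15. Of 16 tested genes of the interferon response, 1 was lower (6.25%) and 1 was higher at the same level, to be read against the same shares of all genes. Their median was -0.09. Irf7, a regulator of type I interferon, differed by 1.20 (limma adjusted p = 0.111), Irgm1, an interferon-inducible GTPase, by -0.81, and Igtp, of the same family, by 0.89.

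Markers of other cells moved with the genotype and with single arrays, and their part in the results was not tested. In bulk samples, fewer cells of a type and less RNA per cell cannot be told apart. B-lineage markers were bright in both groups, led by the receptor components Cd79b and Cd79a. Cd79b differed by -0.23 and Cd79a by 0.32, and Cd79a had 18.92, 18.74 and 18.40 in Mef2c-deficient arrays, against 18.34, 17.80 and 18.96 in control arrays. Of the 11 B-lineage markers tested, 9 had lower means, 4 (36.4%, against 20.9% of all genes) reached an unadjusted p under 0.05 as lower and 0 as higher, and the median was -0.84. Their median shift was -0.16, -0.77 and -1.40 in Mef2c-deficient replicates 1 to 3, against -0.04, -0.05 and 0.05 in control replicates 1 to 3. Their summed deposited value ran from 993635 to 1904098 in Mef2c-deficient arrays, against 1630005 to 2204827 in control arrays. All 9 markers of plasmacytoid dendritic cells tested had higher means, against 4245 of all 11271 genes. Of these 9, 5 were higher at an unadjusted p under 0.05, against 5.32% of all genes. Their sum ran from 83707 to 1154917 in Mef2c-deficient arrays, against 41302 to 133323 in control arrays. The 2 brightest were Irf8 and Siglech, and Siglech had 14.41, 16.55 and 18.54 in Mef2c-deficient arrays, against 12.59, 12.51 and 15.53 in control arrays. All 8 neutrophil markers tested also had higher means, but 0 reached an unadjusted p under 0.05. Their sum ran from 46086 to 1288061 in Mef2c-deficient arrays, against 34175 to 178549 in control arrays. Here replicate 3 was highest in both groups: S100a8 had 15.15, 13.59 and 18.96 in Mef2c-deficient arrays, against 14.16, 13.01 and 15.26 in control arrays, and S100a9 had 16.62, 14.91 and 19.13 in Mef2c-deficient arrays, against 16.14, 14.51 and 16.68 in control arrays. In Mef2c-deficient replicate 3 the medians of the neutrophil and dendritic cell markers were the highest of the 6 arrays. The core median there was above the control mean (0.29), though not for every core gene, and the cap median was below it (-0.66). Whether these values go together was not tested.

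The sums of the remaining lists overlapped between groups as well. The 5 monocyte and macrophage markers tested summed to 104544 to 383642 in Mef2c-deficient arrays, against 86546 to 107206 in control arrays, with Ctss and Lyz2 the brightest. The 4 T and NK cell markers, led by Thy1 and Nkg7, summed to 917 to 7727 in Mef2c-deficient arrays, against 723 to 1381 in control arrays. The 4 erythroid markers, led by Car2 and Alas2, summed to 3906 to 21660 in Mef2c-deficient arrays, against 15558 to 24972 in control arrays. The 6 plasma cell markers, led by Irf4 and Mzb1, summed to 224922 to 338555 in Mef2c-deficient arrays, against 305024 to 439476 in control arrays. No marker is at 0 on these arrays, where background alone gives a value.

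How far the proteasome genes stood below the controls depended on scaling, because the median gene tested was itself lower by 0.36. That background also depended on the level filter, since without it the median difference over 17372 genes was 0.07. Other scalings moved the median of the 11271 genes tested to between -0.10 and 0.10. The cap median was then -0.42 (quantile normalization), -0.49 (centred on the kept probe sets), -0.27 (cyclic loess) and -0.32 (centred on the genes tested), and the core median -0.16, 0.04, 0.04 and 0.21 in the same order. The median of the immunoproteasome genes Psmb9 and Psmb10, 0.08 on the deposited scale, was 0.27, 0.37, 0.49 and 0.54, with Psmb10 itself at 0.38, 0.46, 0.61 and 0.63. Counts of lower members at an unadjusted p under 0.05 were 6, 6, 5 and 3 in that order, against 13 on the deposited scale, with 1, 2, 1 and 2 members higher, while over all genes the split of 2353 lower and 600 higher became 1248 and 814, 1209 and 1581, 1148 and 931, and 730 and 2278. Psmc1, Psmd1 and Psmd11 were lower at an unadjusted p under 0.05 in all 19 alternatives run, and Psmc6 in 17 of 18. Psma3 was higher at that level in 7 of 19. The alternatives reuse the same arrays, and the lower genes named here were among the members with the smallest p. Psmc6 also passed the level filter through the control arrays alone. How many of all genes were lower in every alternative was not determined, so these repeated calls have no background to be read against.

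**Figure D5:**
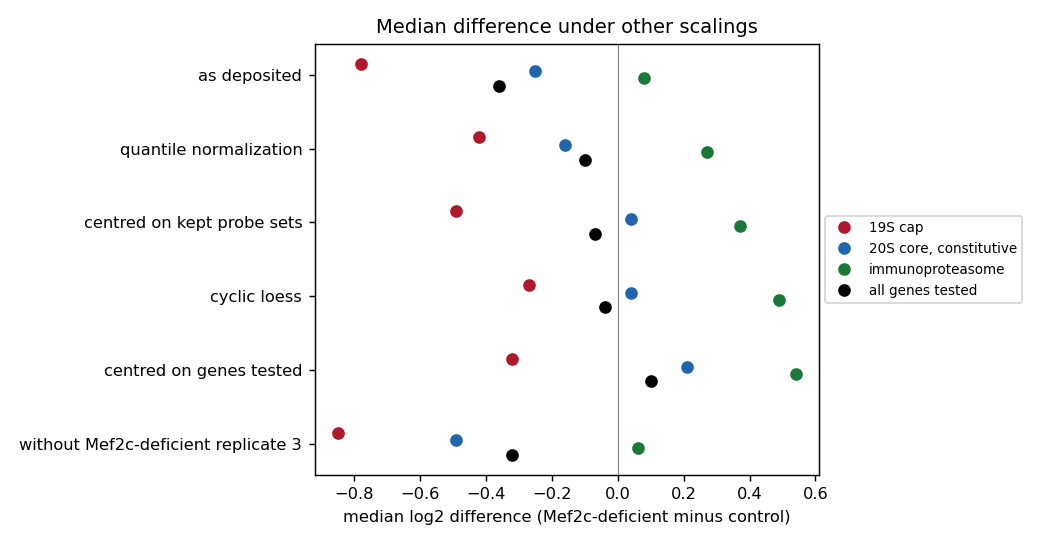
The x axis is the median log2 difference, Mef2c-deficient minus control, of the 16 cap genes, the 14 core genes, the 2 immunoproteasome genes and all genes tested, and each row is 1 way of scaling the arrays, the last row being the deposited scale without Mef2c-deficient replicate 3. In every row the cap is leftmost and the immunoproteasome rightmost, while the core moves from -0.49 without that replicate to 0.21 when centred on the genes tested.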

How the data were processed

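Pre-B cells had been sorted from bone marrow by surface markers, and their RNA hybridised to Affymetrix arrays. A single table of linear intensity values covering 23913 probe sets was deposited by the authors. According to its methods, robust multiarray averaging had been used to summarise the probes, and the submitters' notes name limma and RMA, with versions not given in the sources used here. The 3 Mef2c-deficient and 3 control arrays were grouped by genotype label. Values were log2-transformed without an offset, and probe sets were named through GEO's annotation of the platform, where symbols may be outdated. Of the probe sets, 17689 with 1 symbol were kept and 524 with several left out. Probe sets with a mean log2 above the 40th percentile (7.26) were tested in limma 3.58.1 (R 4.3.3; lmFit on genotype alone, then eBayes, two-sided), on the brightest probe set of each gene, with Benjamini-Hochberg adjustment over 11271 genes. The fit was tested on simulated data first. Pairs were compared by exact permutation in Python 3.11.15.

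Same-numbered arrays shared deviations from the means of their groups (r across genes of 0.348, 0.226 and 0.373 for replicates 1, 2 and 3). A replicate block was therefore fitted as an alternative, although what the numbers mean is not stated. Every member may be named. Per-array values are given for Psmb5 to Psmb10, Psme1, Psme3 and the 8 members with the smallest p, for further members where a single array stood out, and for members below the filter. The 3 genes with the smallest p are named for each pathway list and the 2 brightest for each marker list. Members and lists were chosen with earlier results of these data known. The array number limits the precision.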

Additional observations from a re-analysis of the deposited data

How the results depend on the processing

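Of 19 alternatives, none reversed the median difference or any of the 3 pair differences, but many could not. Pair differences are taken within arrays, so only quantile normalization, cyclic loess, an added offset or leaving out an array could move them. The replicate block and the methods' t-test leave the median difference as it is. Of the 43 members, 26 kept their sign in all alternatives in which they were tested. The count of members lower at an unadjusted p under 0.05 was 13 (30.2%, against 20.9% of all genes). It was 6 with quantile normalization (14%, against 11.1%) and 5 with cyclic loess (11.6%, against 10.2%). Centred on the kept probe sets it was 6 (14%, against 10.7%), and on the genes tested 3 (6.98%, against 6.48%). With array weights it was 21 (48.8%, against 26.1%). The count ran from 8 to 19 when single arrays were left out. It was 8 (18.6%) without Mef2c-deficient replicate 2 or control replicate 1 or 2, where 21.7%, 12.4% and 16.4% of all genes were lower. Without Mef2c-deficient replicate 3 it was 19 (44.2%, against 23.7%). The median difference was -0.25 with quantile normalization, -0.08 with cyclic loess, and -0.27 and -0.10 with the 2 centrings. Past the adjusted threshold were 6 members with array weights (Psmc1, Psmc6, Psmd1, Psmd11, Psmd13 and Psmc3ip; 14%, against 10.2% of all genes) and 0 to 2 when single arrays were left out, the 2 being Psmd11 and Psmc3ip without Mef2c-deficient replicate 3 (4.65%, against 1.41% of all genes). The replicate block gave 12 lower members (27.9%, against 23.1% of all genes), 7 of them cap genes. It also gave 1 higher core gene, Psma3, and 0 members past the adjusted threshold. Over all genes it left 0 of the 2 adjusted calls, with a smallest adjusted p of 0.0685. The methods' t-test gave 13 lower members (30.2%, against 16.9% of all genes) at its threshold of 0.05 and 0 after Benjamini-Hochberg adjustment. Psmb8 could not be used in the alternative without shared probe sets.

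Signs changed for members whose difference on the deposited scale was between -0.48 (Psma5) and 0.23 (Psmb4), and for some marker genes. Centred on the genes tested, values were 0.04 for Psmd3, 0.06 for Psmg3, 0.08 for Psmb6, 0.10 for Psmd8, 0.13 for Psma6, 0.15 for Psmb2, 0.23 for Cd79b, 0.28 for Psma4 and Psmd5, 0.30 for Psma7, 0.31 for Psma8, 0.40 for Psme1, 0.44 for Psma2 and 0.45 for Psmb9. Centred on the kept probe sets, they were 0.06 for Cd79b, 0.11 for Psma4 and Psmd5, 0.13 for Psma7, 0.14 for Psma8, 0.23 for Psme1, 0.27 for Psma2 and 0.28 for Psmb9. Cyclic loess gave 0.02 for Psma5, 0.03 for Psmb6, 0.05 for Psmb2, 0.07 for Psmd8, 0.13 for Psmd3, 0.15 for Psmg3, 0.22 for Psma7, 0.27 for Psme1, 0.31 for Psma4, 0.36 for Psma2 and Psmb9 and 0.37 for Psmd5. Quantile normalization gave 0.02 for Psma7, 0.04 for Psme1, 0.05 for Psmg3, 0.07 for Psmd3, 0.14 for Psma2 and Psma4, 0.16 for Psmb9 and 0.22 for Psmd5. Array weights gave -0.05 for Psmb10, -0.20 for Psmb3 and -0.66 for Lyz2. When single arrays were left out, differences ran from -0.38 to 0.05 for Cd79b, -2.06 to 1.39 for Lyz2, -0.89 to 1.61 for Nkg7, -0.32 to 0.22 for Psma2, -0.57 to 0.08 for Psma7, -0.01 to 0.40 for Psmb10, -0.12 to 0.28 for Psmb3, -0.23 to 0.48 for Psmb4, -0.21 to 0.19 for Psmb9, -0.55 to 0.02 for Psmd5, -0.20 to 0.14 for Psme1, -0.01 to 2.10 for S100a9 and -0.12 to 1.98 for Thy1. The cause of these changes was not tested.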
